A study of Mus musculus with 24 samples.

Results

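The genes described here are Myc, its dimerization partner Max and the other Max network genes found in the expression tables, namely Mycn, Mycl, Mxd1, Mxd3, Mxd4, Mxi1, Mnt and Mga. They were chosen by name, as 10 of the 21878 gene symbols in the count table of all libraries, and all 10 had a level in every count and TPM column. The libraries were made from poly(A) RNA of female B6C3F1 mice: 21 thymic lymphomas that arose after carbon-ion irradiation, and 3 libraries of normal thymus. The labels give 4 weekly whole-body doses of 1.6 Gy from an age of 4 to 5 weeks. They carry the same irradiation text for the normal thymus as for the lymphomas, so whether the thymus donors were irradiated cannot be read from them. Titles of the thymus samples include 7W, a code left undefined in them. The authors' filtered tables place 11 lymphomas in an Ikzf1-mutated set and 10 in a set without an Ikzf1 mutation (Ikzf1 encodes Ikaros, a zinc finger regulator of T-cell development). Numbers of lymphomas below are those of the library names, from TL2 to TL35. The labels do not say that each lymphoma came from a separate mouse, and the p-values cover the spread between libraries, whatever its source.

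MAX is a basic helix-loop-helix leucine zipper protein that binds DNA as a dimer. With MYC, MYCN or MYCL it activates genes of growth and biosynthesis at E-boxes. The MXD proteins, MXI1, MNT and MGA take the place of MYC in the dimer and act as antagonists: the MXD proteins, MXI1 and MNT recruit SIN3-HDAC corepressors, and MGA belongs to a variant Polycomb complex, PRC1.6. In T-cell leukaemia Myc is a well known target of NOTCH1, and trisomy of chromosome 15, which carries Myc, is a recurrent lesion of mouse thymic lymphoma.

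The sequence that MYC-MAX and MXD-MAX dimers share is the canonical E-box, CACGTG, which is its own reverse complement and so reads alike on both strands. RefSeq promoters (build GRCm38.p6, 250 bases before to 50 after each start) were at hand for 9 of the 10 genes, and 3 of these held the motif: Max, Mnt and Mxd4. The motif stood in 8.09% of all 27025 genes with a promoter and in 11.4% of the 10036 tested genes with one. The network's own matches are shown with 1 match each of Nop2, Impdh2 and Ldha, genes of ribosome biogenesis and metabolism whose values are given further on. E-box letters are in capitals, with 10 bases on each side.

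Max: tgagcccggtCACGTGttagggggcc

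Mnt: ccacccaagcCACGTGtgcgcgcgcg

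Mxd4: gctgggccacCACGTGctgttgctaa

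Nop2: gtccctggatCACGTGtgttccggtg

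Impdh2: gctcgataagCACGTGgttacccagc

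Ldha: gcccagcctaCACGTGggttcccgca

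These stretches lie at chr12:76962236-76962261 (Max, minus strand), chr11:74830791-74830816 (Mnt, plus), chr5:34187914-34187939 (Mxd4, minus), chr6:125131813-125131838 (Nop2, plus), chr9:108560316-108560341 (Impdh2, plus) and chr7:46845746-46845771 (Ldha, plus). The E-box of Max begins 3 bases before the RefSeq start and runs across it. Those of Mnt and Mxd4 begin 123 and 219 bases before it. A match is a description of the letters and not a measured binding site.

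Total counts per library ran from 14998988 to 36559710 in the lymphomas and from 24543936 to 27544876 in the thymus. Levels between libraries are given as CPM, the counts relative to library size, scaled by TMM, and levels between genes as the authors' TPM, which divides by gene length. Tests used edgeR's quasi-likelihood model on all 13121 genes that passed a filter on low counts, with Benjamini-Hochberg adjustment over them and a threshold of 0.05. All 10 network genes passed that filter, Mycn only through its thymus counts. T-lineage markers (Cd3e, Cd3d, Thy1, Lck and others, 8 in all) were present in every library, with summed levels of 3259 to 5942 CPM in lymphomas and 6878 to 7657 CPM in thymus. Cd2 was the weakest of them, at 0.495 to 11.2 CPM in lymphomas. In lymphomas against thymus 4 of the 8 were called lower and 0 higher, beside 15.4% of all genes in each direction.

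In lymphomas against thymus, Myc rose, and Mxd1, Mxd3, Mxi1 and Mnt fell. Mycn was called lower too, but it entered the test only through its thymus counts, so its fitted values are a description here and in the comparisons by mutation set. Max, Mycl, Mxd4 and Mga did not pass the test. Among all genes tested, 15.4% were called higher (2022) and 15.4% lower (2022). RLE size factors in edgeR gave 2087 of 4057 called genes higher and DESeq2 2687 of 4785, whereas limma-voom gave 1612 of 4294 and limma on log2(TPM + 1) 1434 of 4024. The median log2 fold change over all genes was 0.07 in the edgeR fit. It ran from -0.10 on log2(TPM + 0.1) to 0.11 without the filter on low counts. Leaving out any 1 of the 3 thymus libraries left 3 network genes called, Myc, Mycn and Mxd3.

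**Figure D1:**
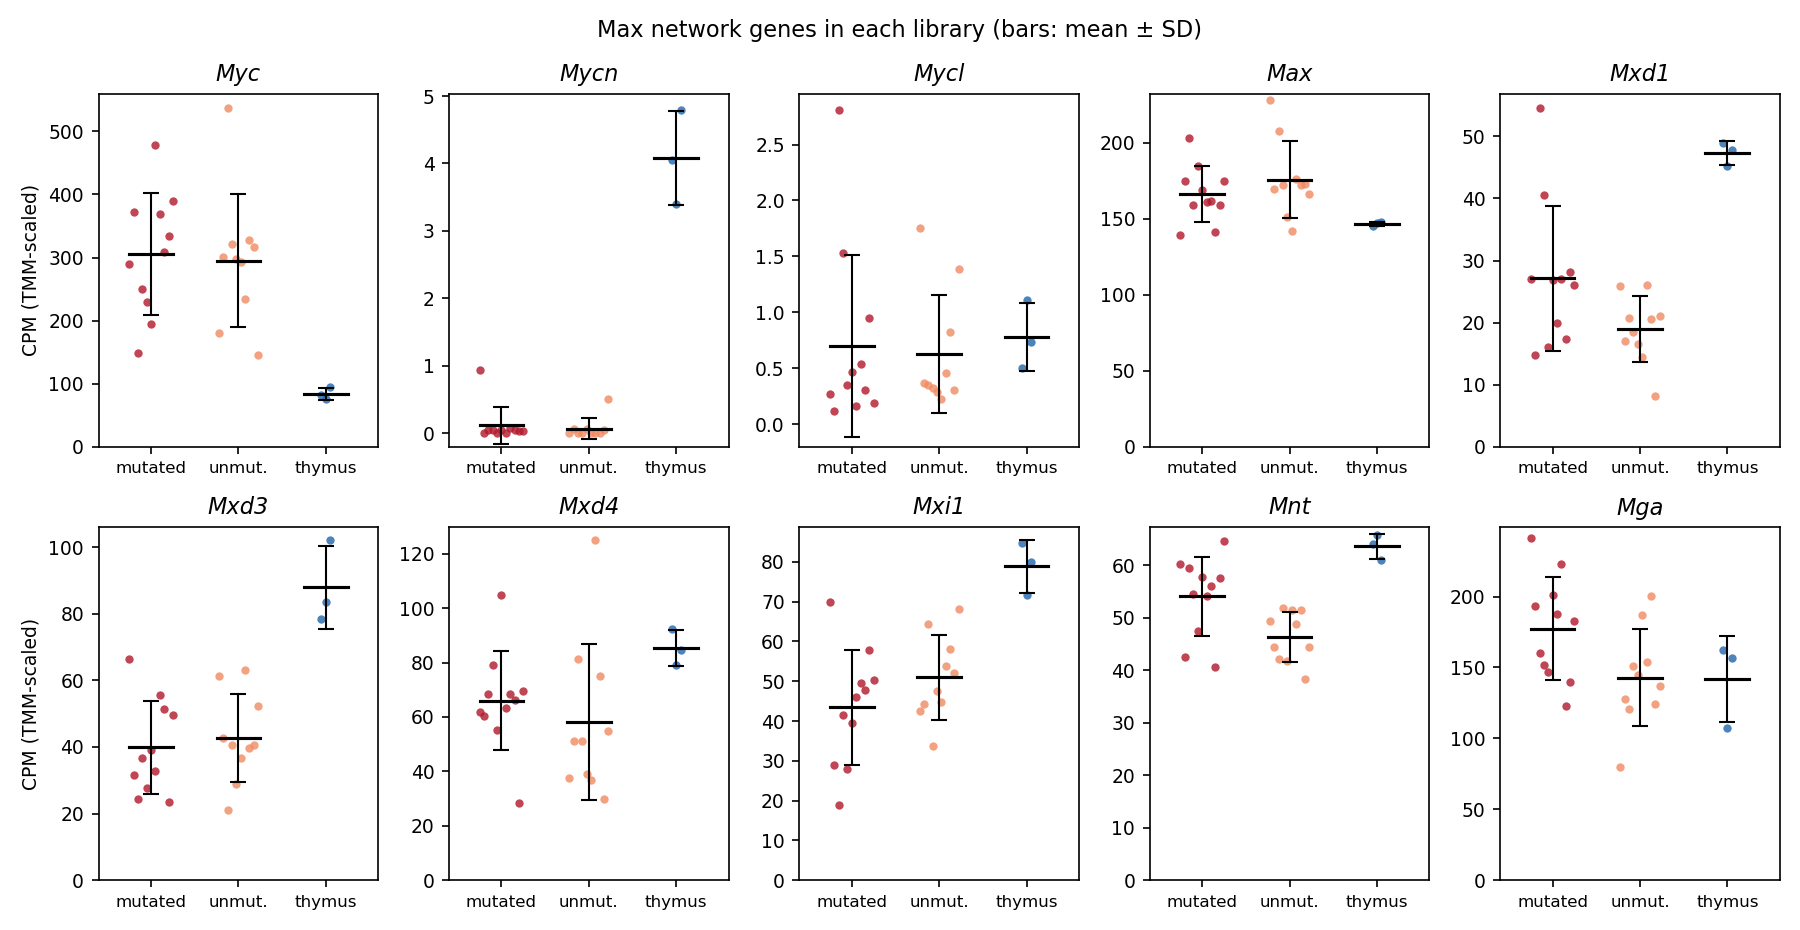
Level of each network gene in CPM (y axis, linear from near 0) in every library of Ikzf1-mutated lymphomas (n = 11), unmutated lymphomas (n = 10) and normal thymus (n = 3), with the mean and SD as bars. All 21 lymphomas lie above the thymus libraries for Myc and below them for Mycn, Mxd3 and Mxi1, while Max, Mga and Mycl overlap or scatter on both sides.

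Myc (chr15:61985391-61990374, plus strand, GRCm38) encodes the growth-promoting partner of MAX. Its level in lymphomas was lowest at 145 CPM in lymphoma 35, had a median of 301 CPM and was highest at 537 CPM in lymphoma 20. The thymus libraries had 81.4, 75.4 and 94.6 CPM. Every lymphoma thus stood above every thymus library, as did 6.33% of all tested genes, and the lymphomas spread over 3.70 times from lowest to highest. The means were 301 ± 98.3 CPM in lymphomas (SD, n = 21) and 83.8 ± 9.79 CPM in thymus (SD, n = 3), a 3.59-fold rise (log2 fold change 1.84, SE 0.32, edgeR adjusted p = 0.000196). Under every alternative run the rise passed the test, with log2 fold changes of 1.68 to 1.97.

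Mycn (chr12:12936093-12941914, minus strand) encodes a MYC paralog known mainly from embryonic and neural tissue. In 9 lymphomas it had no read, in another 9 it had 1 read and in lymphoma 14 it had 2. The 2 exceptions were lymphoma 2 with 17 reads (0.935 CPM) and lymphoma 35 with 14 reads (0.5 CPM). The thymus libraries had 113, 86 and 131 reads, or 4.05, 3.4 and 4.79 CPM. No lymphoma reached the thymus range, as for 7.93% of all tested genes, and 3 reads corresponded to 0.0801 to 0.197 CPM at these depths. The fitted log2 fold change was -5.42 (SE 0.87), a description whose size depends on the prior count. On log2(TPM + 1) the value was -2.25. Of 8 tested markers of thymic epithelium 7 were called lower as well, beside 15.4% of all genes. Of these, Prss16, Psmb11 and Tbata were near 0 in lymphomas (at most 0.351, 0.0655 and 0.22 CPM). Like Mycn, they entered the test through their thymus counts and could only be called lower. The summed level of that list was 0.949 to 10.9 CPM in lymphomas and 26.0 to 66.9 CPM in thymus, and its proteasome gene Psmb11 stood at 0 in 15 lymphomas. Their part in the Mycn result was not tested, and in bulk RNA fewer cells of a type and less RNA per cell cannot be told apart.

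Mycl (chr4:122995652-123002485, plus strand), the third MYC paralog, was near the limit of detection, with 3 to 55 reads in lymphomas and 14 to 28 in thymus. It averaged 0.668 ± 0.678 CPM in lymphomas and 0.779 ± 0.305 CPM in thymus and did not pass the test (log2 fold change -0.22, SE 0.71, edgeR adjusted p = 0.845). Lymphomas 7, 18, 9 and 35 had the highest levels, 2.81, 1.75, 1.53 and 1.39 CPM, all above the thymus maximum of 1.11 CPM. Another 14 lymphomas were below the thymus range.

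Max (chr12:76937269-76962201, minus strand), the shared partner, was the steadiest of the 10 genes, with a coefficient of variation of 12.8% over the lymphomas. It ranged from 139 through a median of 169.7 to 228 CPM in lymphomas, against 145, 147 and 148 CPM in thymus. In 18 lymphomas it was above the thymus range and in 3 below. The difference did not pass the test (log2 fold change 0.22, SE 0.11, edgeR adjusted p = 0.143).

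Mxd1 (chr6:86647042-86669161, minus strand), an antagonist known from differentiating cells, fell to a mean of 23.2 ± 9.92 CPM in lymphomas, against 47.3 ± 1.9 CPM in thymus. Its lymphoma values had a minimum of 8.22 CPM in lymphoma 34, a median of 20.8 CPM and a maximum of 54.6 CPM in lymphoma 7. Thymus values were 49.0, 45.2 and 47.8 CPM, so 20 lymphomas were below the thymus range and lymphoma 7 was above it. The log2 fold change was -1.03 (SE 0.30, edgeR adjusted p = 0.0122), and the adjusted p was 0.052 to 0.0641 without any 1 thymus library. All 8 neutrophil markers tested were also called lower, beside 15.4% of all genes. Their summed levels were 0.655 to 40.5 CPM in lymphomas and 56.7 to 106 CPM in thymus. Among them Mpo and Elane were near 0 in lymphomas (at most 0.358 and 0.44 CPM) and entered the test through their thymus counts. The part of these markers in the Mxd1 result was not tested.

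Mxd3 (chr13:55325168-55329823, minus strand), the MXD member known from cells in S phase, had 21.1 CPM at its lowest, a median of 39.8 and 66.4 CPM at its highest in lymphomas. Thymus libraries had 78.3, 83.4 and 102 CPM. The groups did not overlap, as for the 7.93% of all tested genes that lay below the thymus range in every lymphoma. The log2 fold change was -1.09 (SE 0.25, edgeR adjusted p = 0.00204). Mycn aside, Mxd3 and Myc were the network genes that passed in all 31 alternative fits of lymphomas against thymus.

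Mxi1 (chr19:53310518-53375810, plus strand), an MXD-type antagonist also called Mxd2, likewise fell without overlap, as did 7.93% of all tested genes. It ranged from 18.8 CPM in lymphoma 7 through a median of 47.5 to 69.8 CPM in lymphoma 2, against 84.8, 71.8 and 80.0 CPM in thymus. The log2 fold change was -0.75 (SE 0.23, edgeR adjusted p = 0.0178), and the adjusted p was 0.0574 to 0.107 without any 1 thymus library.

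Mxd4 (chr5:34173883-34187720, minus strand), a further MXD antagonist, varied widely: 28.5 CPM in lymphoma 16, a median of 61.7 and 125 CPM in lymphoma 31, against 92.4, 79.1 and 84.5 CPM in thymus. It was below the thymus range in 17 lymphomas, above it in 2 and did not pass the test (log2 fold change -0.45, SE 0.29, edgeR adjusted p = 0.244).

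Mnt (chr11:74830920-74845725, plus strand), the broadly expressed antagonist, had 38.4 to 64.6 CPM with a median of 51.4 CPM in lymphomas, against 64.0, 65.7 and 61.1 CPM in thymus. Below the thymus range were 20 lymphomas, and lymphoma 17 was within it. The small fall was at the threshold (log2 fold change -0.33, SE 0.13, edgeR adjusted p = 0.0465). It was lost with DESeq2-type size factors in edgeR (0.0545), without the filter (0.102), with limma on TPM (0.0507 and 0.0503) and without the lymphomas with raised chromosome 15 described further on (0.129). Leaving out 1 library in turn gave 0.0303 to 0.185, and the call was lost without each of 17 libraries, all but lymphomas 2, 7, 9, 12, 14, 16 and 17.

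Mga (chr2:119897228-119969581, plus strand), the large MAX partner of the PRC1.6 complex, ranged from 79.8 CPM in lymphoma 18 through a median of 152 to 241 CPM in lymphoma 2, against 162, 107 and 157 CPM in thymus. With 12 lymphomas inside the thymus range, no change passed the test (log2 fold change 0.18, SE 0.22, edgeR adjusted p = 0.558).

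**Figure D2:**
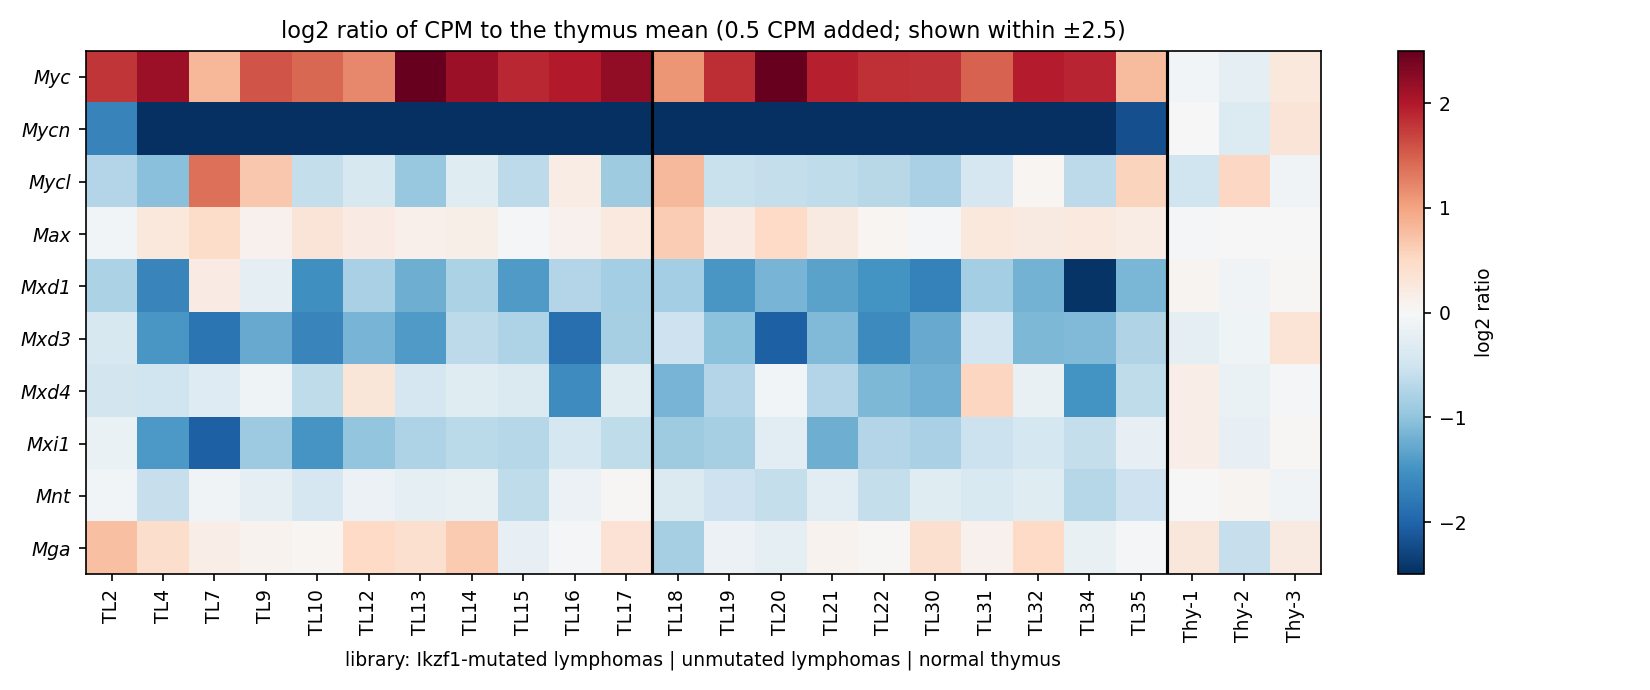
Log2 ratio of each network gene's CPM in a library to the thymus mean, after adding 0.5 CPM (colour, shown within ±2.5), with genes down the page and libraries along it as mutated lymphomas, unmutated lymphomas and thymus. The Myc row is high and the Mycn row low in all lymphomas, and lymphoma 7 stands out by high Mxd1 and low Mxi1.

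On the TPM scale, which allows genes to be compared, Myc was the most abundant network transcript in lymphomas (312 ± 99.6 TPM, n = 21), beyond the SDs of the next, Max (164 ± 19.4 TPM). Mxd4 (133 ± 54.6 TPM) and Mxd3 (78.9 ± 25.6 TPM) followed, each overlapping its neighbour. Mnt, Mga, Mxi1 and Mxd1 came next at 19.4, 19, 17.7 and 12.1 TPM and overlapped within their SDs, and Mycl (0.427 TPM) and Mycn (0.0885 TPM) were last. In thymus the order began with Mxd4 (191 ± 21.2 TPM, n = 3) and Mxd3 (178 ± 24.8 TPM), which overlapped within their SDs, followed by Max (149 ± 3.72 TPM) and Myc (92.0 ± 11.9 TPM). Myc was thus at the head of the order in lymphomas and behind Mxd4, Mxd3 and Max in thymus.

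The summed TPM of Myc, Mycn and Mycl divided by that of the 6 antagonist genes was 0.53 to 2.01 in lymphomas, with a median of 1.16, against 0.20 to 0.22 in thymus. Lymphoma 20 had the highest ratio, and lymphomas 31 and 35 had the lowest, both 0.53. Relative to Max TPM, the MYC family stood at 0.80 to 3.20 in lymphomas and 0.58 to 0.72 in thymus. No lymphoma overlapped the thymus in either ratio, which adds up the levels given above and was given no test.

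Each mutation set was also set against thymus, the comparison named in the study design. In Ikzf1-mutated lymphomas Myc rose (306 ± 96.1 CPM, n = 11, against 83.8 ± 9.79 CPM in thymus; log2 fold change 1.87, edgeR adjusted p = 0.000438), and Mxd3 and Mxi1 fell, with Mycn called lower as well. In this comparison 13.1% of all genes were called higher and 12.9% lower. In unmutated lymphomas Myc rose by a like amount (295 ± 106 CPM, n = 10; log2 fold change 1.82, edgeR adjusted p = 0.000335), and Mxd1, Mxd3 and Mnt fell, with Mycn called lower as well, beside 18% of all genes called higher and 17.3% lower. Both comparisons share the 3 thymus libraries. Of the genes called in a single set, Mxd1 and Mnt had an edgeR adjusted p of 0.0501 and 0.152 in the mutated set, and Mxi1 of 0.0526 in the unmutated set. The calls of Myc and Mxd3 in both sets, and of Mxd1 and Mnt in the unmutated set, held whichever 1 library was left out. Some other outcomes turned on single libraries. In the mutated set Mxd1 passed without lymphoma 7, 9, 31 or 34, and Mxi1 was lost without thymus library 1 or 3. In the unmutated set Mxi1 passed without lymphoma 2, 4, 7, 10, 20 or 35, Max without 30 and Mxd4 without 31.

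Directly between the sets, none of the 10 genes passed edgeR's test, nor any with DESeq2 or limma, while 2.43% of all genes were higher in mutated lymphomas and 2.95% lower. At an unadjusted p below 0.05 there were 3068 of all 13121 genes with RLE size factors in edgeR, both directions together. Of the 10 network genes 3 were below it in the main fit, a share not far from that, all higher in mutated lymphomas. These were Mnt (54.1 ± 7.51 CPM in mutated and 46.4 ± 4.77 CPM in unmutated lymphomas, log2 fold change 0.22, SE 0.08, edgeR adjusted p = 0.105), Mxd1 (27.1 ± 11.7 CPM in mutated and 18.9 ± 5.33 CPM in unmutated lymphomas, log2 fold change 0.52, SE 0.21, edgeR adjusted p = 0.143) and Mga (177 ± 36.4 CPM in mutated and 143 ± 34.1 CPM in unmutated lymphomas, log2 fold change 0.31, SE 0.14, edgeR adjusted p = 0.175). Myc differed by a log2 fold change of 0.05 (SE 0.20, edgeR adjusted p = 0.904). Without mutated lymphoma 15 Mnt passed the test (edgeR adjusted p = 0.0486).

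**Figure D3:**
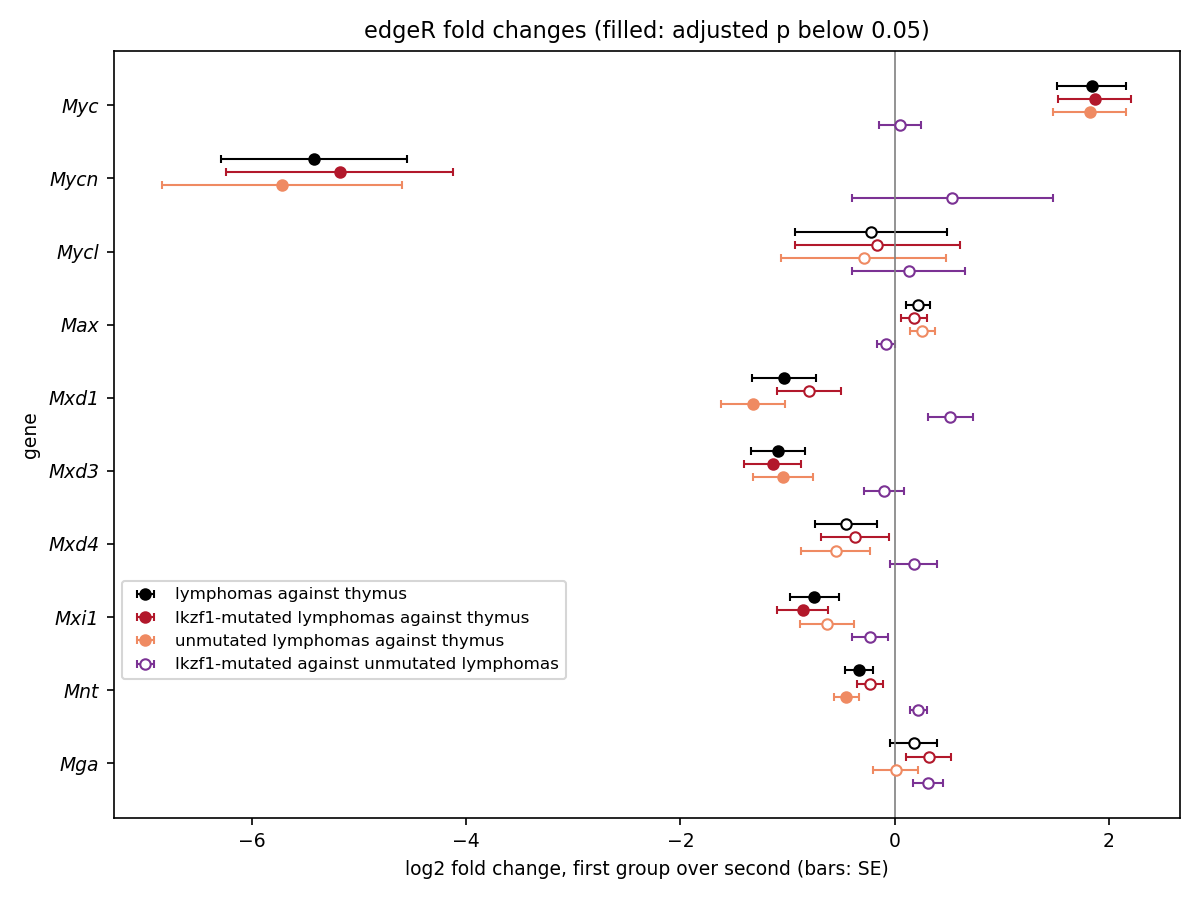
Log2 fold change (x axis) with its SE for each network gene in 4 comparisons: all lymphomas, Ikzf1-mutated lymphomas and unmutated lymphomas against thymus, and mutated against unmutated lymphomas. Filled points passed edgeR's adjusted p of 0.05; Myc lies near 1.8 and Mycn below -5 in all comparisons with thymus, and no point of the mutated against unmutated comparison is filled.

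Chromosome 15, which carries Myc, was expressed at a higher level in part of the lymphomas. Its level was taken as the median log2 ratio to the thymus mean over 472 measured genes of that chromosome more than 5 Mb from Myc. At or above 0.3 were 8 lymphomas (0.374 to 0.609): mutated lymphoma 12 and unmutated lymphomas 18, 20, 22, 30, 32, 34 and 35. The other 13 were at -0.126 to 0.210, with mutated lymphoma 9 nearest below the limit, and the thymus libraries at -0.049 to 0.096. The grouping is one of expression, and the DNA copy number was not analysed here. It overlaps the mutation sets, 1 of 11 mutated against 7 of 10 unmutated lymphomas, so the set comparison and the chromosome 15 level cannot be told apart. In a fit of the lymphomas alone with that level as a covariate, edgeR called none of 11696 genes between the sets (1808 at an unadjusted p below 0.05). The same libraries and genes without the covariate, a fit chosen after seeing the data, gave 388 called genes (2547 at an unadjusted p below 0.05), and the model that also holds the thymus libraries gave 706 of 13121.

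Myc overlapped across this split. It was 145 to 537 CPM with a median of 295 CPM in the 8 raised lymphomas, and 149 to 478 CPM with a median of 309 CPM in the other 13, a ratio of medians of 0.95. The ranges overlap almost entirely, and both the highest and the lowest Myc lymphoma (20 and 35) had raised chromosome 15. Within the raised lymphomas Myc was lower where the chromosome 15 level was higher by rank (Spearman's rho -0.88, exact permutation p = 0.00724, adjusted over 5 relations 0.0362), but not by Pearson's r (-0.65, exact permutation p = 0.0824, adjusted 0.179; -0.66 without lymphomas 18 and 20). Within the 13 others Pearson's r was -0.48 (permutation p = 0.107, adjusted 0.179) and rho -0.52 (permutation p = 0.0714, adjusted 0.179). Mxd4 had the largest gap among the other well expressed members, with a median of 46.9 CPM in raised and 63.3 CPM in other lymphomas, and ranges that overlapped (29.9 to 105 CPM in raised and 28.5 to 125 CPM in other lymphomas).

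**Figure D4:**
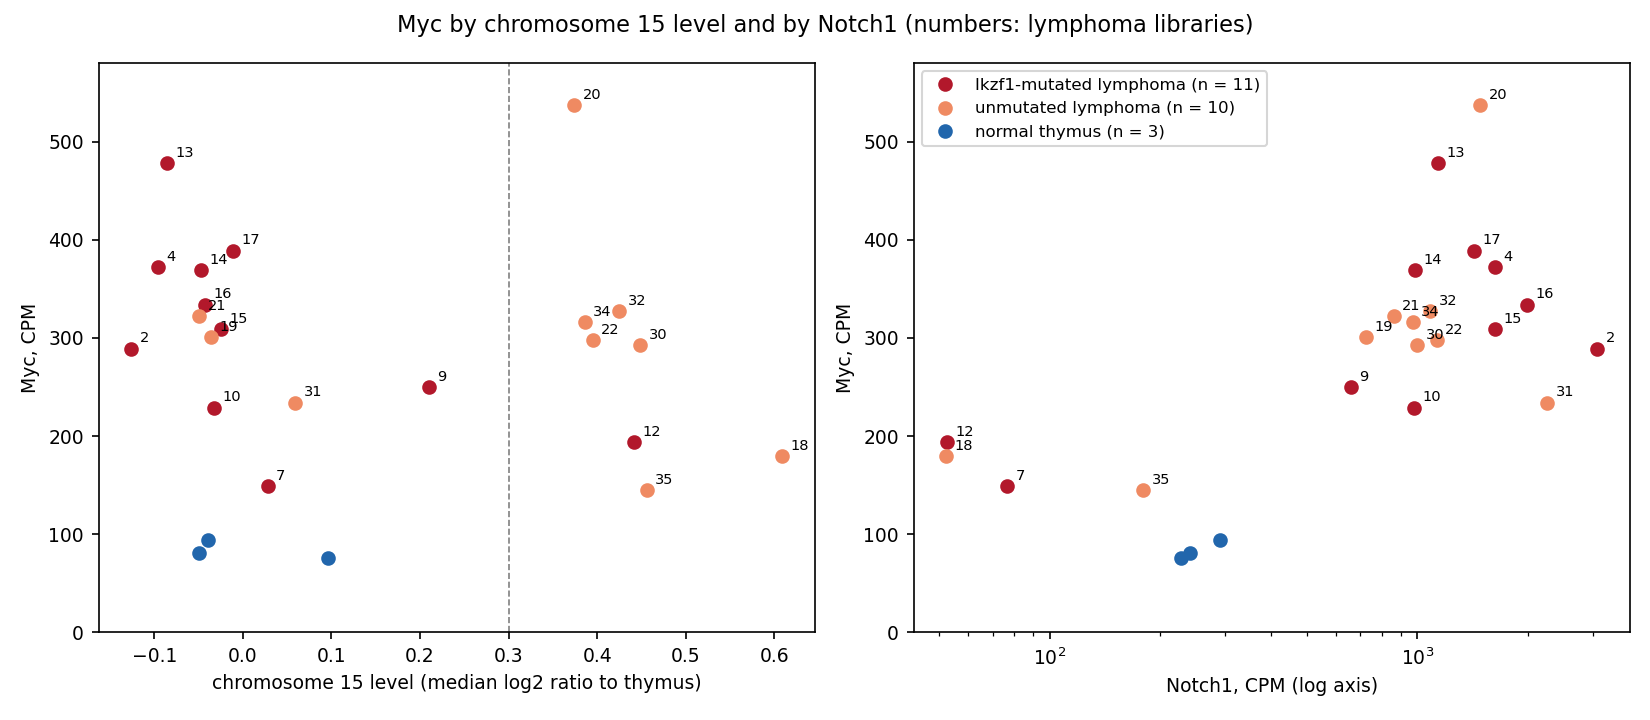
Myc in CPM (y axis) against the chromosome 15 level (left, median log2 ratio to thymus, dashed line at 0.3) and against Notch1 in CPM (right, log axis), with 1 point per library coloured by mutation set or thymus and lymphomas numbered. On the left the 8 raised lymphomas cover the same Myc range as the other 13; on the right lymphomas 7, 12, 18 and 35, with Notch1 under 200 CPM, have the lowest Myc of the lymphomas.

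Notch1, the receptor upstream of Myc in thymocyte precursors, split the lymphomas into 2 separate groups. It had 52.3 to 179.7 CPM in lymphomas 7, 12, 18 and 35 and 658 to 3085 CPM in the other 17, against 241, 227 and 289.7 CPM in thymus. The split at the widest gap in Notch1 was chosen after these values were seen. Those 4 lymphomas had the 4 lowest Myc levels, 145 to 194 CPM, against 229 to 537 CPM in the other 17, and were still above all 3 thymus libraries. They also held 3 of the 4 highest Mycl levels (lymphomas 7, 18 and 35). Of all lymphomas, lymphoma 7 had the highest Mxd1 and lowest Mxi1, and lymphoma 18 the highest Max and lowest Mga. Apart from Myc, the range of each network gene in these 4, Mycl and Mxd1 included, overlapped that in the other 17. Inside the higher Notch1 group Myc did not follow Notch1 (n = 17, r 0.08, permutation p = 0.759, rho 0.17, permutation p = 0.514), although r was 0.48 without lymphomas 2 and 31. Lymphomas 12, 18 and 35 also belong to the 8 with raised chromosome 15, and the 2 features were not separated by a test. Ikzf1 level (the 20 lymphomas left after its widest gap, r -0.37, permutation p = 0.106, rho -0.32, permutation p = 0.173) and Mxd4 level (n = 21, r -0.04, permutation p = 0.872, rho 0.06, permutation p = 0.806) showed no relation to Myc past the threshold.

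Among tested genes with at least 10 CPM on average in the lymphomas, the 8 whose log2 level was most like that of Myc over the 21 lymphomas were Hibadh (valine breakdown, r 0.88), Atic (purine synthesis, 0.87), Trmt11 (tRNA methylation, 0.87), Heyl (a NOTCH target repressor, 0.86), D10Wsu102e (0.85), Aasdhppt (0.84), Polr3b (RNA polymerase III, 0.83) and Pwp1 (0.83). None lies on chromosome 15, while Trmt11, D10Wsu102e, Polr3b and Pwp1 lie on chromosome 10. The points share the 4 low Notch1 lymphomas: Heyl was 3.83 to 6.03 CPM in those 4 and 44.7 to 309 CPM in the other 17, against 1.04 to 1.46 CPM in thymus. For other members the most alike genes were Rhof, Cxcr6 and Fam129a for Mycl (r 0.93 to 0.92), Usp9x, Elk4 and Pik3cg for Mga (0.93 to 0.90), and Fbxo11, Dyrk1b and Tlk2 for Mxd4 (0.89 to 0.82). H2-T23, Lpar6 and Cmtm6 were most like Mxd1 (0.89 to 0.87), Prkx, Lcp2 and Pnrc1 most like Mnt (0.85 to 0.80), Depdc1b, Cenpl and Sp2 most like Mxd3 (0.81 to 0.76), Cenpt, Nfyb and Ccsap most like Mxi1 (0.79 to 0.72) and Trappc6a, Ift20 and Slc35a2 most like Max (0.75 to 0.74). Mycn, with 2 lymphomas above 2 reads, reached only 0.66 with Dusp6, followed by Anapc2 and Tceanc. Within the network itself the closest pairs over the lymphomas were Mxd1 with Mnt (r 0.72) and Mxd1 with Mycl (0.68), and the most opposed was Myc with Mycl (-0.69), all as descriptions.

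The genes around 2 antagonists also moved in single lymphomas. Over the 101 measured genes within 5 Mb of Mxd4 the median log2 ratio to thymus was -0.85 in lymphoma 16, the lymphoma with the lowest Mxd4 (28.5 CPM), and -0.10 in the median lymphoma. Over the 24 genes around Mxi1 it was -0.70 in lymphoma 10, where Mxi1 was 28.0 CPM, but 0.51 in lymphoma 7, which had the lowest Mxi1 of all at 18.8 CPM. Around Mycn the neighbours went against the gene, at 0.10 to 0.64 in lymphomas and -0.12 to 0.08 in thymus. Around Myc they were at -0.20 to 0.41 in lymphomas, highest in lymphoma 18, whose Myc was 179.7 CPM, and lowest in lymphoma 4, whose Myc was 372 CPM.

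Genes that MYC is known to activate were mostly higher in lymphomas than in thymus. Of 25 ribosome biogenesis genes 21 rose, beside 15.4% of all genes. All 25 had a positive value, with a median log2 fold change of 1.04 beside 0.07 over all genes. Polr1b and Polr1a, subunits of RNA polymerase I, rose, at 1.52 (98.4 ± 21.9 CPM in lymphomas, 34.3 ± 3.38 CPM in thymus, edgeR adjusted p = 2.21e-05) and 1.42 on the log2 scale. Mybbp1a, a nucleolar regulator, rose by 1.45 and the RNA helicase Ddx21 by 1.35. The ribosome export factor Rrp12 rose by 1.28 and the rRNA methyltransferase Nop2, whose E-box is shown above, by 1.18. All 6 were above the thymus range in all 21 lymphomas, as were 6.33% of all tested genes. The E-box stood in the promoters of 5 of the 21 list members with one (23.8%).

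Of 25 growth and metabolism genes 22 rose and 1 fell, beside 15.4% of all genes in each direction, with a median of 1.01. Tfrc, the transferrin receptor, rose most among those named (689 ± 261 CPM in lymphomas, 149 ± 19.3 CPM in thymus, log2 fold change 2.21, edgeR adjusted p = 0.000238). Cad (pyrimidine synthesis) rose by 1.79, Odc1 (polyamine synthesis) by 1.42, Ldha (lactate dehydrogenase) by 1.25, Impdh2 (guanine nucleotide synthesis) by 1.10 and Prmt5 (an arginine methyltransferase) by 1.01. The gene that fell was Ccnd2, cyclin D2 (log2 fold change -3.19, edgeR adjusted p = 0.00560), named after its value was seen. Without any 1 thymus library 18 to 20 members of either list rose. In the growth and metabolism list 11 of the 22 genes with a promoter (50%) held the E-box, beside 11.4% of the tested genes.

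Of 14 genes known to be repressed by MYC 6 fell and none rose in edgeR's test, beside 15.4% of all genes in each direction. At an unadjusted p below 0.05 there were 2 higher and 6 lower, and the median log2 fold change was -0.61. Of all 13121 genes, 5488 were below that p in either direction with RLE size factors in edgeR. Cdkn1b, the cell cycle inhibitor p27, had a log2 fold change of -1.55 (101 ± 37.9 CPM in lymphomas, 295 ± 9.76 CPM in thymus, edgeR adjusted p = 0.000212). The antiproliferative genes Btg2 and Btg1 were at -1.72 and -1.38, the stress gene Gadd45a at -1.38, Klf6 at -1.01 and Ndrg2 at -2.08. The other 8 ranged on both sides of 0, with Cdkn1a, the inhibitor p21, at a log2 fold change of 2.04 that did not pass (edgeR adjusted p = 0.102). DESeq2 called 2 of the 14 higher and 7 lower, and without any 1 thymus library edgeR called 4 lower.

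**Figure D5:**
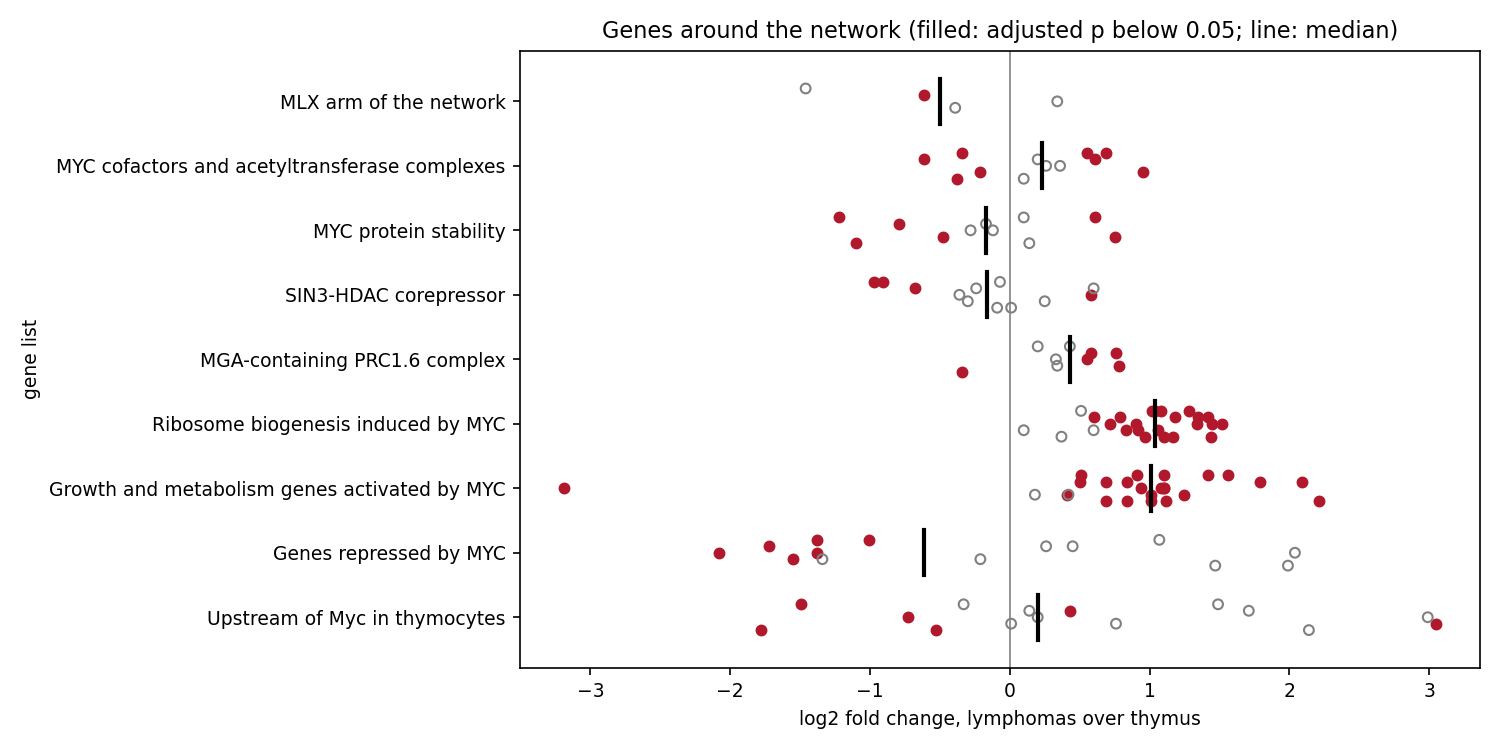
Log2 fold change in lymphomas over thymus (x axis) of each tested member of 9 gene lists around the network, with filled points past edgeR's adjusted p of 0.05 and a bar at each list's median. The medians of the ribosome biogenesis and the growth and metabolism lists lie near 1, with Ccnd2 alone at -3.19, and that of the repressed list at -0.61.

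Transcripts of proteins that work with the network were called in both directions, beside 15.4% of all genes in each. Of 12 MYC cofactors 4 rose and 4 fell. The acetyltransferase Kat2a (log2 fold change 0.95, edgeR adjusted p = 4.38e-06), the helicases Ruvbl1 (0.69) and Ruvbl2 (0.61) and the WD40 scaffold Wdr5 (0.55) were higher. Among the lower ones were Zbtb17, which encodes the MYC repression partner MIZ1 (-0.61), the acetyltransferase Kat5 (-0.38) and the elongation factor Supt5 (-0.21). Among 11 tested regulators of MYC protein stability, 2 rose, a share near that background, and 4 fell. Fbxw7, the ubiquitin ligase subunit that marks MYC and NOTCH1 for degradation, fell (log2 fold change -0.79), with 46.4 ± 6.78 CPM in lymphomas, against 80.4 ± 3.30 CPM in thymus (edgeR adjusted p = 3.11e-05). It was below the thymus range in all 21, as were 7.93% of all tested genes. The kinases Pim2 and Pim1 (-1.22 and -1.10) and the deacetylase Sirt2 (-0.48) fell. The deubiquitinase Usp36 rose by 0.61, and the ubiquitin ligase Huwe1 by 0.75, at the threshold (edgeR adjusted p = 0.0487). Without any 1 thymus library, 1 of the stability regulators rose and 3 fell.

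In the SIN3-HDAC corepressor, which the MXD proteins recruit, Sin3b (log2 fold change -0.91, edgeR adjusted p = 8.19e-05), Arid4a (-0.97) and Arid4b (-0.68) fell. Sap18 rose (0.58) and the other 8 of 12 did not pass. For this list and the PRC1.6 and MLX lists below, 15.4% of all genes were called in each direction against thymus. The number of SIN3-HDAC genes that rose was near that share. Between the sets, Arid4a and Arid4b were called higher in mutated than in unmutated lymphomas (0.45 and 0.27, edgeR adjusted p = 0.0438 and 0.0430) and Sin3b lower (-0.34, edgeR adjusted p = 0.0281), beside 2.43% of all genes higher and 2.95% lower. Without any 1 thymus library, or with the lymphomas fitted alone, only Sin3b of the list was called, as with limma-voom, whereas limma on TPM called only Arid4a and Arid4b. With the chromosome 15 level as a covariate no gene at all was called, and the log2 fold changes were 0.62 for Arid4a, 0.29 for Arid4b and -0.28 for Sin3b. Of 9 tested PRC1.6 genes, partners of Mga, 4 rose (Yaf2, E2f6, Tfdp1 and Wdr5, by 0.78, 0.76, 0.58 and 0.55) and Rnf2 fell by 0.34. Yaf2 lies on chromosome 15. In the parallel network arm of MLX, Mlx fell by 0.61 (edgeR adjusted p = 0.00309), and the other 3 of 4 tested genes did not pass.

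Of 15 tested genes listed as upstream of Myc in thymocytes, a list that also holds NOTCH targets such as Hes1, 2 rose and 4 fell. Beside them 15.4% of all genes were called in each direction, so that the number that rose was near the background. Hes1, a NOTCH target repressor, rose by 3.05 (64.7 ± 28.6 CPM in lymphomas, 7.79 ± 1.55 CPM in thymus, edgeR adjusted p = 0.00471), although 1 lymphoma had 0.255 CPM. Ctnnb1, beta-catenin, rose by 0.43. The T-lineage factors Bcl11b and Tcf7 (-1.49 and -0.53), the STAT factor Stat5b (-0.73) and the E-protein inhibitor Id3 (-1.78) fell. Counts of these smaller lists turned on single thymus libraries: without any 1 of them 1 of the upstream genes fell, 1 or 2 of the cofactors fell, and without thymus library 1 or 2 only 2 or 1 of the PRC1.6 genes rose. Notch1 itself had a log2 fold change of 2.14 that did not pass (edgeR adjusted p = 0.0725), with the 4 low lymphomas in the group.

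Marker genes of cell types differed between the groups as well, beside 15.4% of all genes called higher and 15.4% lower. In bulk RNA a change in cell number and a change in RNA per cell cannot be told apart. Double-positive thymocyte genes were lower (8 of 10, summed 1149 to 7068 CPM in lymphomas and 10805 to 12364 CPM in thymus). Ptcra of that list had a positive log2 fold change of 1.12 that did not pass (edgeR adjusted p = 0.55). Macrophage genes were higher (11 of 12, summed 309.9 to 1265 CPM in lymphomas and 149 to 222 CPM in thymus). Fibroblast genes were higher too (8 of 10, summed 59.8 to 1299 CPM in lymphomas and 13.2 to 17.3 CPM in thymus). Col1a2 (up to 949 CPM in lymphomas) and Pdgfrb (up to 858 CPM) carried that sum, while Col1a1 reached 37.1 CPM, Col3a1 39.3 CPM and Dcn 9.98 CPM. B-cell genes had 2.23 to 224 CPM in lymphomas and 44.0 to 73.7 CPM in thymus with none called by edgeR and 1 of 6 lower at an unadjusted p below 0.05. With RLE size factors in edgeR, 5488 of all 13121 genes were below that p in either direction. Erythroid genes had 6.51 to 343 CPM in lymphomas and 33.3 to 39.8 CPM in thymus, with 1 of 6 tested called higher. The part of these marker differences in the network's differences from thymus was not tested.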

How the data were processed

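Per the labels' protocols, poly(A) RNA came from cell suspensions of lymphomas or thymus, with 1 batch date for all 24 libraries. The submitters' processing notes name HTSeq 0.6.1, HISAT2 2.0.1, SAMtools, edgeR and cutadapt 1.9.1 and the build GRCm38.p6. The strand setting of the counting was not given in the sources used here, so overlapping or antisense genes could share reads. The authors deposited raw counts per gene symbol for all libraries. The authors also deposited TPM values, whose gene lengths are not stated. Filtered count tables deposited by the authors (12194 and 12109 genes), whose counts equal the full table in 100% of cells, gave the mutation sets. A CPM table of lymphomas chosen by Grb10 was not used, because its columns do not name the groups.

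The 10 network genes and the 9 gene lists were chosen with earlier results of these data known. Tests used edgeR 4.0.16 in R 4.3.3 (TMM, filterByExpr, quasi-likelihood test, Benjamini-Hochberg over 13121 genes). A model of 2 groups served for all lymphomas against thymus, and a joint model of 3 groups for the sets. The code was tested on simulated counts. Alternatives were DESeq2 1.42.0, limma 3.58.1 (voom, and log2 TPM with 1 or 0.1 added), other size factors, no filter, leaving out libraries and adjustment for chromosome 15. Genes were placed with GENCODE on GRCm38 (20613 symbols), and promoters are RefSeq's. Named genes were the 10 network genes, up to 6 members of each list with the smallest p past the threshold, and those most like each network gene; gene models known only by a number were not named, 1 gene of the cofactor list is not reported here, and Kat5, Supt5, Cdkn1a, Ccnd2 and Notch1 were named after their values were seen. Correlations used log2(CPM + 1) with exact permutations or 100000 resamples, two-sided, within groups split at the widest gap in Notch1 or Ikzf1 where it exceeded 1 on the log2 scale.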

Additional observations from a re-analysis of the deposited data

Results flagged for a closer look

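Among the 10 unmutated lymphomas, 2 values stood apart from the rest of the set by Dixon's ratio, the gap to the nearest library divided by the whole range, which exceeded the 95% critical value for 10 samples. Myc in lymphoma 20 was 537 CPM, with a ratio of 0.536. Mycn in lymphoma 35 was 0.5 CPM, with a ratio of 0.876, which rests on 14 reads. For normally distributed values about 1 in 20 groups is flagged this way by chance. Mycn, with 0 or 1 read in the other unmutated lymphomas, does not meet this, so that rate does not apply to its flag. The 11 mutated lymphomas and the 3 thymus libraries were outside the group sizes examined.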

How the results depend on the processing

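Myc passed the test against thymus under every alternative run, for all lymphomas and for each mutation set. Mxd3 did so except in unmutated lymphomas once those with raised chromosome 15 were left out. Mycn was called lower in every run too, which is a description, since it passed the filter only through its thymus counts. Leaving out 1 library at a time gave 1929 to 4435 called genes and 3 to 6 network genes (Mycn included) for lymphomas against thymus (4044 and 6 with all libraries), 1441 to 3904 and 3 to 5 for the mutated set (3412 and 4), 2856 to 4895 and 5 to 6 for the unmutated set (4642 and 5), and 301 to 1221 and 0 to 1 between the sets (706 and 0). The lowest counts against thymus came without thymus library 2. Between the sets, counts moved by over 1.5 times without lymphomas 34 (301), 18 (409), 22 (414), 35 (417), 30 (420), 17 (447) and 31 (1221). Without the lymphomas with raised chromosome 15, unmutated lymphomas against thymus gave 2757 genes and 2 network genes, from fewer libraries, and the set comparison 1 gene; the lymphomas fitted alone gave 388 (chosen after seeing the data) and 0 with chromosome 15 as a covariate, and DESeq2 gave 1275. Values that changed sign were all short of the threshold. For Mycl, leaving out thymus library 2 gave 0.12, 0.19 and 0.05 against thymus (lymphomas, mutated, unmutated), with ranges over the libraries left out of -0.46 to 0.12, -0.66 to 0.19 and -0.60 to 0.05. Between the sets Mycl was -0.22 with voom and -0.37 to 0.45 over libraries left out. Mga in unmutated lymphomas against thymus was -0.01 with voom, -0.14 and -0.15 on TPM, -0.00 in the authors' filtered table and -0.15 to 0.13 over libraries left out. Between the sets Myc was -0.23 with the covariate and -0.03 to 0.20 over libraries left out, Mycn -1.05 to 2.34 over libraries left out, Max 0.03 and Mxd3 0.00 on both TPM scales, and Mxd4 -0.27 and Mxi1 0.01 without raised lymphomas. The relation of Myc with Mxd4 was 0.09 on log2(TPM + 1). The cause was not tested in any of these. No paired analysis was possible because the lymphoma numbers name tumours and only number 2 occurs in both groups. Depth limits Mycn and Mycl, whose lymphoma counts were 0 to 17 and 3 to 55.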
